A study of Mus musculus with 4 samples.

Results

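The imprinted Dlk1-Dio3 region of mouse chromosome 12 holds a large array of miRNA genes, and 63 miRNA names from 42 of its hairpins were among the 567 mouse miRNA names on the arrays analysed here. Members were chosen by the number in their name, whatever their level, with every letter, arm and star form included. All 42 hairpins lie on the plus strand between Dlk1 and Dio3 in the RefSeq annotation of GRCm38.p6, over 180.1 kb, and 21 of them had both arms on the array. Small RNA came from B104 cells, a clonal neuroblastoma line. In 2 samples the cells were mock-treated (control), and in 2 samples they had received an siRNA duplex against RBM3, a cold-inducible RNA-binding protein, at 20 nM; all were harvested after 48 h. The controls received no siRNA, so loss of RBM3 and the presence of a duplex cannot be told apart, and a miRNA array does not read the level of RBM3 itself. GEO's labels give the cells as mouse, whereas the paper cites the line with a source on rat cell lines, so the names and sequences below are those of the mouse array design.

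Genes of the Dlk1-Dio3 region are read from only one parental chromosome. The protein-coding genes Dlk1, Rtl1 and Dio3 are expressed from the paternal copy, and the long noncoding RNAs Meg3, Rian and Mirg, together with the miRNAs, from the maternal copy. The miRNAs are grouped here into those taken as antisense to Rtl1, which pair fully with the Rtl1 transcript, the miR-379/miR-410 group, and a few further hairpins. The miR-379/miR-410 group lies towards Mirg and is best known from brain. The further hairpins lie within the annotated spans of Meg3, Rtl1 or Rian. A miRNA recognizes its targets mainly through its seed, bases 2 to 8 of the mature strand, after Drosha has cut the hairpin from the primary transcript and Dicer has removed its loop.

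The mature strands of 4 of the 5 names that gave a detected signal are shown here because the results below turn on them, with the seed in capitals (RefSeq, GRCm38.p6). Array names without an arm were assigned the arm they stood for in earlier miRBase releases, since the files give no probe sequence. No sequence is shown for miR-487b.
miR-494-3p: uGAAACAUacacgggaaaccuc
miR-370-3p: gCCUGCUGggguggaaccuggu
miR-134-5p: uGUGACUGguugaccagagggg
miR-539-5p: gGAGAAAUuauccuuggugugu

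These 4 seeds differ from each other, and none of them is shared with another mature mouse miRNA in the RefSeq table. The strands differ widely in base composition, with a GC content of 45.5% for miR-494-3p, 68.2% for miR-370-3p, 59.1% for miR-134-5p and 40.9% for miR-539-5p. Their annotated hairpins carry the mature strand, in capitals here, on either side of the loop. It forms the 3′ side in Mir494 and Mir370 and the 5′ side in Mir134 and Mir539.
Mir494 (chr12:109715318-109715402, plus strand): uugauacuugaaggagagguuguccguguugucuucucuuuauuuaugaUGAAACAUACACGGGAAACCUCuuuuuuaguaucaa
Mir370 (chr12:109618258-109618336, plus strand): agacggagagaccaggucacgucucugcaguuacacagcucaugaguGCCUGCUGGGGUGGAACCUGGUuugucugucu
Mir134 (chr12:109734139-109734209, plus strand): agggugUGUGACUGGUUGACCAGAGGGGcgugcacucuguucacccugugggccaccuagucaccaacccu
Mir539 (chr12:109728129-109728202, plus strand): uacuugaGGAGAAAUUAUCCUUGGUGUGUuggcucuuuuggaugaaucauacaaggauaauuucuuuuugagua

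Mir370 lies within the annotated span of Rian, 54.6 kb from the first hairpin of the list. Mir494 lies at 151.6 kb, Mir487b at 163.6 kb, Mir539 at 164.4 kb and Mir134 at 170.4 kb, all 4 between the annotated spans of Rian and Mirg. The host transcript was not read by these arrays.

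Signals are given as the total signal of a name, the background-subtracted intensity summed over its probes, in arbitrary units that can fall below 0, together with the detection flag of the scanner software. All 4 arrays were on 1 slide, and no spot was saturated. The knockdown arrays were dimmer as a whole. The control arrays had 177 and 190 mouse names detected and the knockdown arrays 147 and 162, and the median signal of the names detected on all 4 arrays was 375 and 422 in control and 94.2 and 92.4 after knockdown. The array's own positive control probes, which are no mouse miRNAs, also gave less signal after knockdown, with log2 differences of -0.52 to -1.57. The part of this dimming in the results was not tested apart from the change in miRNAs, and it bears on every direction given below. Of the neural miRNAs, miR-9, miR-9* and miR-128 were detected on all arrays and miR-124 on none; 4 of 4 muscle miRNAs were detected on all arrays and 4 of 4 blood miRNAs on none. The summed signal of the 4 neural miRNAs was 826 and 927 in control and 152 and 154 after knockdown. That of the 4 muscle miRNAs was larger, with 10190 and 12740 in control and 4441 and 4591 after knockdown. Of 7 embryonic stem cell miRNAs, 5 were detected on no array, and miR-290-5p and miR-294 on some. The summed signal of the 7 was 22.6 and 31.9 in control and 69.4 and 73.3 after knockdown. This rise came mainly from miR-290-5p, with 20.6 and 23.9 in control and 43.55 and 42.6 after knockdown, and from miR-294. For miR-294 the values were 5.62 and 6.21 in control and 21.2 and 34.5 after knockdown, whereas undetected miR-295 was lower on both knockdown arrays. The sum moved in the direction of miR-134, miR-539, miR-487b and miR-370, and its part in those results was not tested.

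Most of the cluster gave no detectable signal in B104 cells on probes of the mouse design. How well these probes match the RNA of the cells was not tested. Of the 63 cluster names, 58 (92.1%) were detected on no array, compared with 295 of the 504 other mouse names (58.5%). The control arrays each detected 3 cluster names, miR-494, miR-487b and miR-370. Knockdown array 1 detected 4, with miR-134 added, and knockdown array 2 detected 5, with miR-539 added as well. The count of detected names was thus higher on the knockdown arrays in the cluster and lower on them over all mouse miRNAs. None of the 5 had the other arm of its hairpin on the array.

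**Figure D1:**
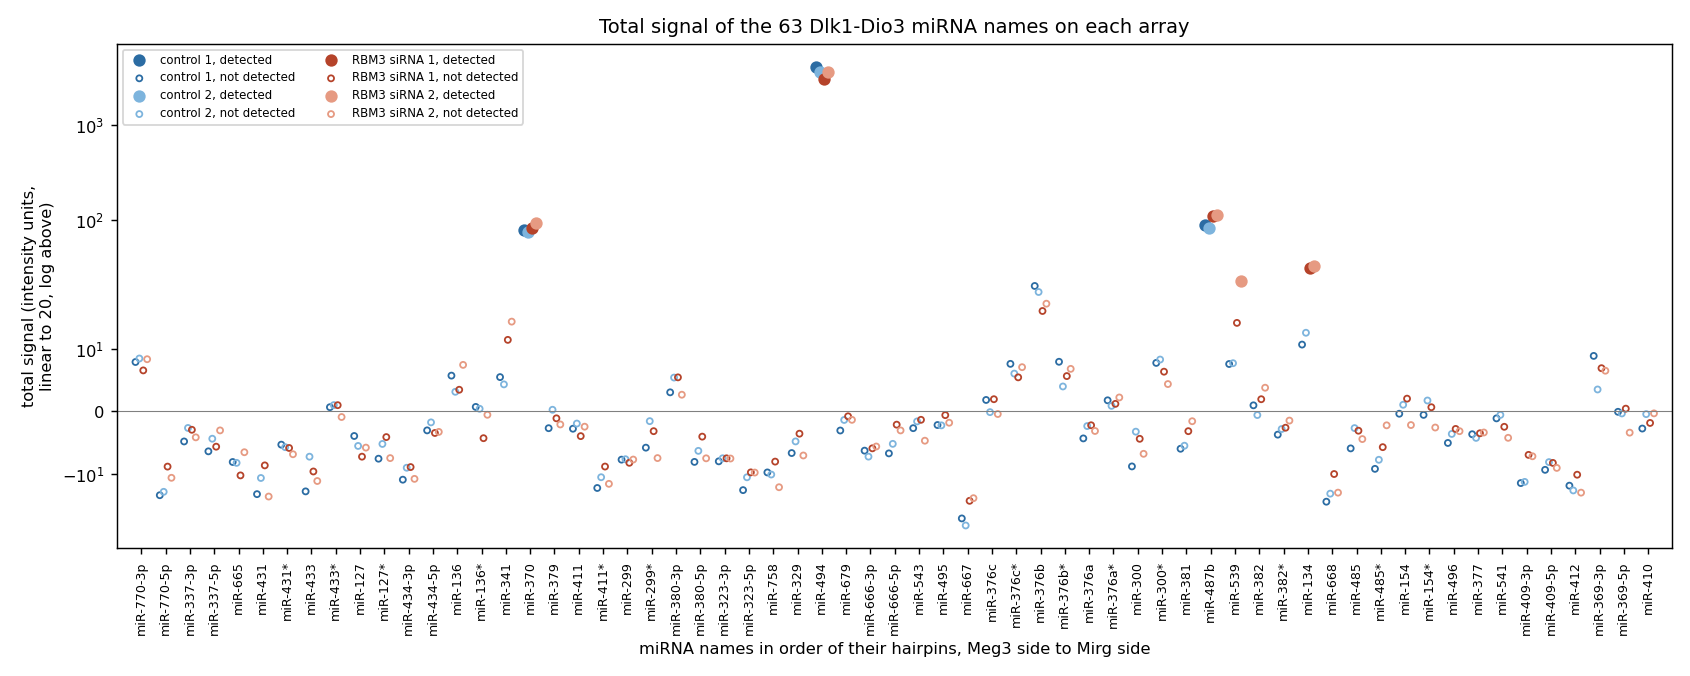
Total signal (intensity units, linear to 20 and logarithmic above) of the 63 names in the order of their hairpins, on each of the 4 arrays, with filled points where the name was detected. Filled points occur at miR-370, miR-494, miR-487b, miR-539 and miR-134, and the remaining 58 names lie between -18.1 and 19.9 on all arrays.

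By group, the 10 names of the 5 hairpins taken as antisense to Rtl1 (miR-431, miR-433, miR-127, miR-434 and miR-136) were detected on no array. Their mean signals over the arrays ran from -11.5 to 4.92. Of the 46 names of the miR-379/miR-410 group, 4 were detected on at least 1 array and 2 on all arrays. Of the 7 names of the other 5 hairpins, miR-370 was detected. Among these hairpins Mir337 and Mir665 also lie within the annotated span of Rtl1, and their names were detected on no array. The detected names thus came from both of the latter groups. A further 10 names on the array have hairpins between Dlk1 and Dio3 and were outside the rule for the list (miR-453, miR-493, miR-540-3p, miR-540-5p, miR-544, miR-654-3p, miR-654-5p, miR-673-3p, miR-673-5p and miR-882). None was detected on any array, and their signals ran from -11.2 to 3.93.

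miR-494, of the miR-379/miR-410 group, was detected on all arrays, by all of its 20 spots. Control arrays 1 and 2 read 4164 and 3662 for it, and knockdown arrays 1 and 2 read 3074 and 3702. The groups overlapped, with knockdown array 2 above control array 2. The means were 3913 ± 355 in control and 3388 ± 444 after knockdown (SD, n = 2 each), a difference of the same order as the spread between replicates. Its probes gave knockdown to control ratios of 0.882 and 0.835. On probe 1 (2586 and 2277 in control, 1951 and 2345 after knockdown) the groups overlapped, whereas on probe 2 (1578 and 1385 in control, 1122 and 1356 after knockdown) both knockdown arrays lay below both control arrays.

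miR-487b gave a total signal of 88.2 and 81.0 in control cells, which compares with 109 and 113 in knockdown cells. The groups did not overlap, and the ratio of their means was 1.32. Before scaling, both knockdown arrays lay above both control arrays for 18.7% of the 214 mouse miRNAs detected on at least 1 array and below them for 79.9%. The 2 probes of miR-487b differed. The brighter probe gave 65.2 and 61.8 in control and 86.7 and 91.7 after knockdown, a ratio of 1.41. The other gave 23.0 and 19.2 in control and 22.8 and 21.3 after knockdown, a ratio of 1.05 with overlapping groups, so the higher total signal of miR-487b came from a single probe.

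miR-370, which has been studied in human liver cells for its effect on fatty acid oxidation, gave a total signal of 78.1 and 73.3 in control cells against 82.3 and 92.3 in knockdown cells. The groups did not overlap, and the ratio of their means was 1.15. The gap between the highest control and the lowest knockdown array was narrow beside the scanner software's error of 8.02 to 8.72 units per array. Its probes gave ratios of 1.18 and 1.13, and on both probes the knockdown arrays lay above the control arrays.

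**Figure D2:**
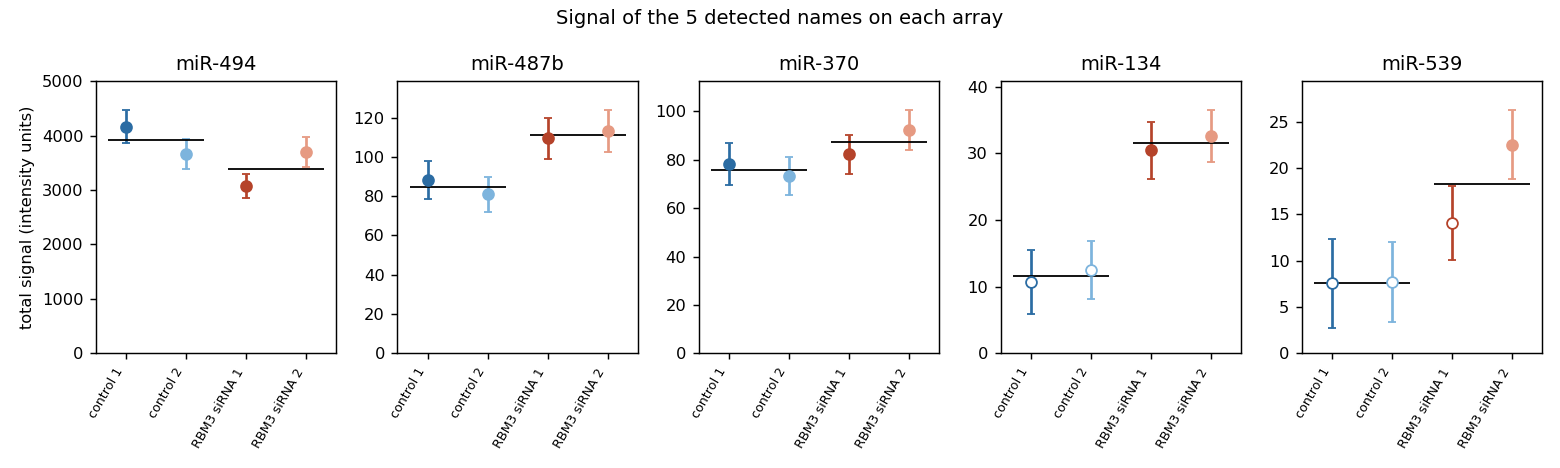
Total signal (intensity units, each panel with its own axis from 0) of the 5 detected names on each array, with the scanner software's error as bars, the mean of each group as a line and open points where the name was not detected. miR-494 overlaps between the groups, and for miR-487b, miR-370, miR-134 and miR-539 both knockdown arrays lie above both control arrays.

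miR-134, a brain-enriched miRNA that limits the size of dendritic spines in rat hippocampal neurons through the kinase Limk1, carried the detection flag in both knockdown samples but in neither control. Its total signal was 10.6 and 12.5 in control cells and 30.4 and 32.6 in knockdown cells, so the groups were far apart relative to their spread (SD 1.33 and 1.51, n = 2 each). The scanner software's error was 3.92 to 4.79 units per array. Each of its 4 probes was higher on both knockdown arrays, with signals of 1.225 to 3.59 in control, near the error of 2.18 to 2.405 units per probe there, and 6.61 to 9.54 after knockdown. Of its 20 spots 13 and 14 were above background in control and 20 and 20 after knockdown. Since miR-134 was detected only on the knockdown arrays, the shared direction of its 4 probes, read on the same samples, is a description only.

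miR-539 was detected on knockdown array 2 alone. It gave 7.54 and 7.67 in control cells and 14.1 and 22.6 in knockdown cells. The knockdown arrays differed from each other by more than array 1 differed from the controls. Each of its 4 probes was higher on both knockdown arrays, with signals of 1.31 to 2.54 in control, about the error of 2.16 to 2.39 units per probe there, and 2.99 to 6.005 after knockdown. Of its 20 spots, 7 and 9 were above background in control and 18 and 20 after knockdown. miR-134 and miR-539 entered the test only through the knockdown arrays, so that a higher value there was a condition of their being tested. Their group gaps, spot counts and probe directions above are therefore a description only. The same holds for their differences, adjusted p-values, calls and ranks below.

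**Figure D3:**
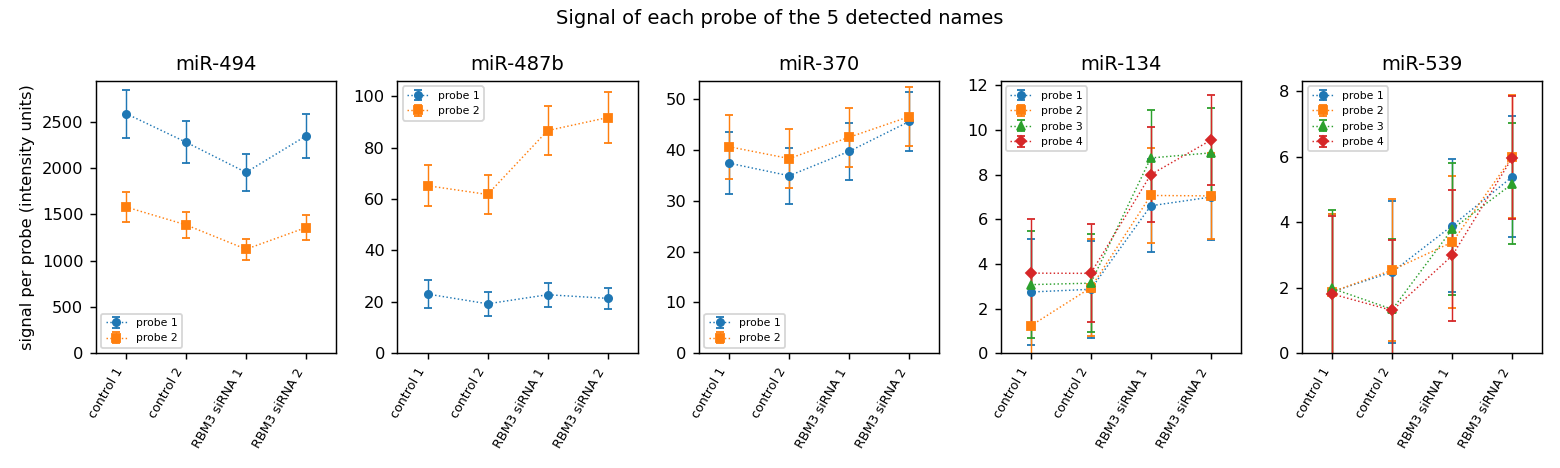
Signal of each probe (intensity units, each panel with its own axis from 0) of the 5 detected names on the 4 arrays, with the scanner software's error as bars. Each probe of miR-370, miR-134 and miR-539 is higher on both knockdown arrays, whereas probe 2 of miR-487b rises from 61.8 to 65.2 in control to 86.7 to 91.7 after knockdown and its probe 1 stays between 19.2 and 23.0.

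To compare the groups, log2(signal + 20) was scale-normalized, and the 214 mouse miRNAs detected on at least 1 array were fitted in limma with the replicate number as a block. At an adjusted p under 0.05, 165 miRNAs (77.1%) were lower and 38 (17.8%) higher after knockdown, with a median difference of -1.22. Of the 3 cluster names detected on all arrays, none was called lower, miR-487b and miR-370 were called higher, and miR-494 did not pass. miR-134 and miR-539 were also called higher, under the condition just given. The offset compresses the change of dim names, and the list was not tested as a set. The split over all miRNAs moves with the scaling: it was 21 lower and 140 higher with centring on the 75th percentile of detected miRNAs, 114 and 73 on positive control probes, 103 and 51 with quantile normalization, 89 and 68 with processed signals per probe, and 113 and 54 with normexp and quantile.

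miR-134 was higher by 0.83 ± 0.10 (SE, adjusted p = 3.92e-06 from limma), which is 1.781-fold on this scale (95% confidence interval 0.62 to 1.05 in log2). Its control signal was not detected. With no scaling its difference was 0.71 and with an offset of 50 it was 0.45. miR-539 was higher by 0.58 ± 0.11 (adjusted p = 0.000282 from limma), which is 1.498-fold on this scale (95% confidence interval 0.34 to 0.83 in log2). It was detected on 1 of 2 knockdown arrays and on no control array. With no scaling its difference was 0.46 and with an offset of 50 it was 0.29, and it did not pass with quantile normalization (0.91, adjusted p = 0.0724 from limma). miR-487b was higher by 0.49 ± 0.10 (adjusted p = 0.000567 from limma). This call was lost with a floor of 0.5 in place of the offset and no scaling (0.40, adjusted p = 0.322 from limma). The signals of miR-487b lay above that floor, and the standard error in that fit was 0.39 for every miRNA. miR-370 was higher by 0.32 ± 0.11 (adjusted p = 0.0115 from limma), but this call was lost with no scaling (0.16, adjusted p = 0.24 from limma) and without control replicate 2 (0.25, adjusted p = 0.0667 from limma). The difference of miR-494 was 0.07 ± 0.13 (adjusted p = 0.603 from limma, 95% confidence interval -0.21 to 0.35). miR-494 took either direction with the scaling: it was -0.21 with no scaling (adjusted p = 0.133 from limma) and 0.84 when arrays were centred on the positive control probes (adjusted p = 0.0103 from limma), and without RBM3 siRNA replicate 1 it was 0.20 (adjusted p = 0.0404 from limma).

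**Figure D4:**
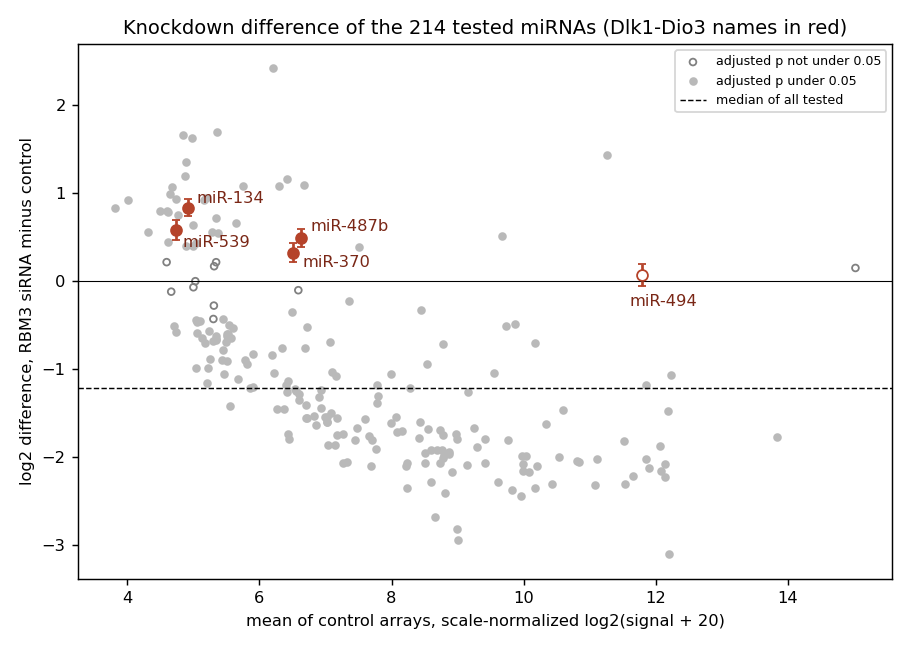
Log2 difference (RBM3 siRNA minus control) against the mean of the control arrays in scale-normalized log2(signal + 20), for the 214 tested miRNAs, with cluster names in red with their standard error and filled points for an adjusted p under 0.05. The cluster names lie between 0.07 and 0.83, above the median of all tested at -1.22 (dashed).

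Relative to the median of all tested miRNAs, the 3 names detected on all arrays stood higher by 1.29 (miR-494), 1.54 (miR-370) and 1.71 (miR-487b). For miR-494, 171 of the 214 tested miRNAs had a lower difference, for miR-370 176 and for miR-487b 182. For miR-539 and miR-134, which had to be high after knockdown to be tested, the distances were 1.80 and 2.05. Centring an array on any constant leaves such distances as they are, but other normalizations changed their size and order. With quantile normalization they were 1.498 for miR-494, 1.98 for miR-370, 2.10 for miR-487b, 1.24 for miR-539 and 1.71 for miR-134. With normexp and quantile they were 1.42 for miR-494, 1.05 for miR-370, 1.06 for miR-487b, 0.46 for miR-539 and 0.63 for miR-134. Against the median of all 567 names, 0.01 with no detection filter, the distances were smaller than in the main fit. There they were 0.06 for miR-494, 0.31 for miR-370, 0.48 for miR-487b, 0.57 for miR-539 and 0.82 for miR-134. No cluster name was called lower under any alternative run. With a floor of 0.5 and no scaling, 2 cluster names were called higher, where 13.1% of all tested miRNAs were higher and 76.2% lower. These were miR-134 and miR-539, which had to be high after knockdown to be tested, so this count is a description only. None of the 3 names detected on all arrays passed in that run. Among the miRNAs detected on all arrays, 2 of 3 cluster names were called higher, where 10.8% were higher and 85.4% lower. With no filter on detection, 10 of 63 cluster names were called higher, but 7 of these 10 were detected on no array. In that run 9.17% of the 567 names were higher and 31.0% lower.

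**Figure D5:**
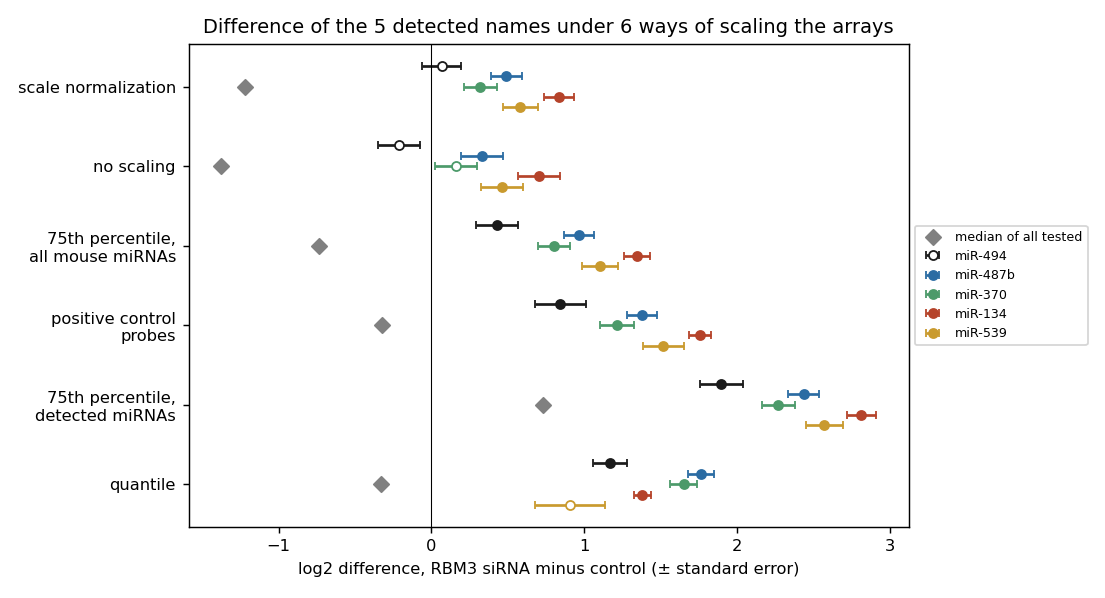
Log2 difference (RBM3 siRNA minus control, with standard error) of the 5 detected names under 6 ways of scaling the arrays, with filled points for an adjusted p under 0.05 and the median of all 214 tested miRNAs as a grey diamond. The diamond moves from -1.37 with no scaling to 0.73 with centring on the 75th percentile of detected miRNAs, and the 3 names detected on all arrays, miR-494, miR-487b and miR-370, lie to its right in each row.

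Among the 58 undetected names, miR-376b had the highest mean signal, with 19.9 and 19.0 in control cells against 15.97 and 17.1 in knockdown cells. Both knockdown arrays lay below both control arrays for it. Of its 20 spots, 18 and 20 were above background in control and 16 and 18 after knockdown, and its scanner error was 5.18 to 6.88 units per array. The miR-376 miRNAs are known for adenosine-to-inosine editing in brain. Its neighbour miR-376a gave signals of -4.29 to -2.20. The mature strands of the pair are shown because they are identical at 18 of 21 positions and yet have different seeds (capitals).
miR-376b-3p: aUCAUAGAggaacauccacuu
miR-376a-3p: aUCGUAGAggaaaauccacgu

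The other undetected names with the highest means were miR-341, which lies within the annotated span of Rian, and miR-770-3p, which lies within that of Meg3. miR-341 gave 5.46 and 4.30 in control and 11.4 and 14.3 after knockdown, and miR-770-3p gave 7.86 and 8.42 in control and 6.52 and 8.30 after knockdown. The knockdown arrays lay above the control arrays for miR-341 and overlapped them for miR-770-3p. These values are near the scanner software's error, which had a median of 5.01 to 6.72 units over the undetected cluster names on an array.

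For 16 of the 58 undetected names (27.6%) both knockdown arrays lay above both control arrays, and for 7 (12.1%) both lay below. Most names in either set were below 0 on all arrays, so for them the direction is only that of a less or more negative value. Over all 567 mouse miRNAs the corresponding shares were 17.1% and 46.4%, and over the 295 other undetected mouse names 13.9% and 28.8%. The median difference in signal of the undetected cluster names was 0.404 units, compared with -0.342 for the other undetected names. On each array 42 to 47 of the 58 names were below 0, so no level and no fold is given for them. The share of their spots above background was 7.85% and 9.15% in control and 10.96% and 11.99% after knockdown, whereas for the other undetected names it was 14.6% and 17.7% in control and 12.96% and 15.5% after knockdown.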

How the data were processed

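The authors hybridized Cy3-labelled small RNA to 1-colour Agilent mouse miRNA arrays and read them with Feature Extraction 10.1.1.1. The deposited files hold background-subtracted intensity per spot, probe and miRNA, and other columns with detection flags. The deposited value table equals the total signal plus 20, for all 577 names, with no scaling. Here log2(total signal + 20) of 567 mouse names was scale-normalized (limma 3.58.1, R 4.3.3). The 214 names detected on at least 1 array were entered into lmFit and eBayes in a model holding the replicate number as a block, which the methods allow, with adjustment by Benjamini-Hochberg at 0.05. This leaves 1 residual degree of freedom and 10.7 from the prior, so p-values lean on spread pooled over miRNAs. An exact permutation test could not go below 0.333. The labels do not say that replicates were separate cultures, so p-values measure only the spread between these arrays. A floor of 0.5 in place of the offset was not scale-normalized, since its factors ran from 0.707 to 1.34, against 0.984 to 1.01 with the offset. Arrays of the same number did not deviate alike (correlation -0.33 over the 214 names).

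Detected names, the 3 brightest undetected names and other names of the region were named by rule; miR-376a was added after its values were seen. Members and lists were chosen with earlier results of these data known. For a name undetected in control, a bound was formed from the mean of normalized log2 values of the knockdown arrays. Per control array it was set against the higher of the lowest detected signal and the name's own signal. For miR-134 and miR-539 the own signal was the higher, so the bound equalled the fitted difference and sets no lower limit. Sequences are from RefSeq; the array's annotation is of another build. The 4 arrays limit the precision.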

Additional observations from a re-analysis of the deposited data

How the results depend on the processing

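The 18 alternatives were other scalings, offsets, filters, background corrections and fits, and each array left out. Their counts over all miRNAs stayed within 1.5 times of 38 higher and 165 lower, except 140, 73, 68 and 14 higher (75th percentile of detected miRNAs, positive control probes, processed signals, detection on all arrays) and 21, 103 and 89 lower (75th percentile of detected miRNAs, quantile normalization, processed signals). Cluster names called higher numbered 2 with a floor of 0.5, miR-134 and miR-539, which were tested only because the knockdown arrays detected them. Names called higher numbered 2 of 3 tested with detection on all arrays, and 10 of 63 with no filter, 7 of them undetected on every array. miR-494 turned to -0.21 with no scaling, -0.211 with the floor and -0.112 with an offset of 50, and ran from -0.079 to 0.216 among the fits with an array left out. miR-494 passed the test in 7 alternatives. miR-370 lost its call in 5, including the floor (adjusted p = 0.606 from limma), an offset of 50 (adjusted p = 0.0535) and no filter (adjusted p = 0.106). miR-487b lost it with the floor (0.396, adjusted p = 0.322) and miR-539 with quantile normalization (0.907, adjusted p = 0.0724). miR-134 kept its call in 17 of 17. Except in the run with no filter, it was tested only because the knockdown arrays detected it, so this count is a description only. Causes were not tested. Without the replicate block, 164 miRNAs were lower and 39 higher, and no call of a cluster name changed; with the numbers crossed, an alternative chosen after seeing the data, 164 were lower and 40 higher. Signals near background limit what can be said of the 58 undetected names.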
